A study of Homo sapiens with 12 samples.

Results

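H3K4me3 regions outside annotated genes are stretches of the genome that were counted for trimethylation of histone H3 at lysine 4 and that lie more than 5 kb from every row of the H3K27me3 table of the same study, whose rows are gene bodies of an Ensembl annotation on the human build hg19. The rule was applied on chromosomes 1 to 18, which that table covers to their ends, and used positions but no counts. It chose 4224 of the 36400 H3K4me3 regions, or 11.6%. On the same chromosomes 22300 regions overlapped a row and 4054 lay within 5 kb of one, and these 26354 regions inside or beside genes serve as the comparison. The other 5822 regions lay on other chromosomes. The rows carry no gene names, and genes that are not rows of that table were not considered.

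The study followed the human colorectal cancer line DLD1 and lines derived from it. The labels call SA, grown out of soft agar colonies, and SPH, grown out of colonospheres, mesenchymal. They call METS, taken from a xenograft's metastasis in the lung, epithelial, and likewise DLD1 itself, the parental line. All 4 lines were cultured in McCoy's 5A medium with serum, and whether a derivative is 1 clone is not given in the sources used here. Each line had 1 H3K4me3 library and 1 H3K79me3 library, with no replicate. The H3K4me3 libraries held 7753937 counts in SA, 7153391 in SPH, 7303186 in METS and 6722508 in DLD1, and the H3K79me3 libraries held 6165169 to 7521451. Without replicates no difference between 2 lines can be set against a spread between cultures, so ratios of single regions carry 95% Clopper-Pearson intervals (exact), and these reflect the counting of reads alone.

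H3K4me3 is laid down by the SET1 and MLL methyltransferase complexes and is strongest over the start sites of transcribed genes, where it is bound by readers that help recruit the transcription machinery. Outside annotated genes the mark is known at unannotated start sites, at active enhancers in weaker form, and at repeats. H3K79 methylation is laid down by DOT1L within the bodies of transcribed genes. The DNA beside centromeres is rich in satellite repeats, of which genome builds hold few copies, so that reads from many copies can be placed on the same stretch.

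Outside genes the H3K4me3 regions were weak in all 4 lines. The median region held 2.32 CPM (counts scaled to the library total) in SA, 3.22 in SPH, 3.01 in METS and 2.83 in DLD1. The median region inside or beside a gene held 22.7 CPM in SA, 23.9 in SPH, 22.2 in METS and 23.8 in DLD1. Regions beside a gene, at medians of 10.7 to 13.3 CPM, lay between regions overlapping a gene, at 27.1 to 28.4 CPM, and those outside genes. All regions outside genes together took 2.54% of the H3K4me3 counts in SA (interval 2.53 to 2.56%), 3.21% in SPH (3.20 to 3.22%), 2.99% in METS (2.97 to 3.0%) and 2.89% in DLD1 (2.87 to 2.90%). Regions inside or beside genes took 82.9%, 82.1%, 82.4% and 82.7% of the counts in SA, SPH, METS and DLD1.

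**Figure D1:**
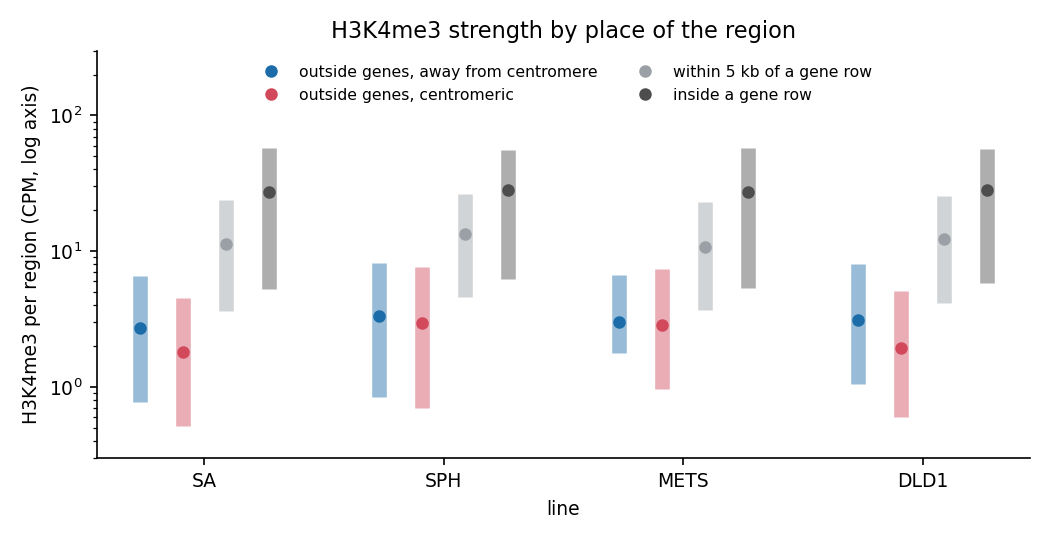
H3K4me3 per region in CPM (log axis) in SA, SPH, METS and DLD1, for regions outside genes away from and near the centromere and for regions beside and inside gene rows; each point is the median over regions and each bar runs between the quartiles. In every line both groups of regions outside genes have medians between 1.81 and 3.36 CPM, below the lowest median of the groups at genes, 10.7 CPM.

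The regions were about as wide as those at genes, with a median length of 430 bp outside genes and 434 bp inside or beside them. Averaged over the 4 lines, 37.8% of the regions outside genes lay under 2 CPM, against 10.5% of those inside or beside genes. At the strong end, 468 regions outside genes (11.1%) reached 16 CPM, against 57.6% inside or beside genes. No count was found in any line in 211 regions outside genes (5.00%), against 362 inside or beside genes (1.37%). A mean of at least 20 counts was reached by 2192 regions outside genes (51.9%), against 85.4%.

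Regions outside genes lay 5004 to 765901 bp from the nearest row, with a median of 24131.5 bp. Chromosome 2 held 466 of them, chromosome 10 held 373 and chromosome 1 held 350, whereas chromosome 15 held 82. A large part lay in dense groups beside centromeres. Each chromosome has 1 stretch that is free of any counted region or row and is 3.0 to 21.1 Mb wide, while the next widest such stretch on any chromosome was at most 1.13 Mb. Each is taken here to mark the centromere, although no gap annotation of the build was used to check it. Within 2 Mb of such a stretch lay 1112 regions outside genes, called centromeric below, and 3112 lay away from it. This split was chosen after the values had been seen.

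The centromeric regions and the others differed in their surroundings. The next H3K4me3 region was 471 bp away for the median centromeric region, against 23378.5 bp for the median region outside genes elsewhere and 517 bp for regions inside or beside genes. A counted H3K79me3 region lay within 5 kb of 1019 centromeric regions (91.6%), against 434 of the other regions outside genes (13.9%) and 69.9% of the regions inside or beside genes. Most H3K4me3 regions outside genes that were not centromeric thus stood alone and had no counted H3K79me3 beside them.

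Away from centromeres, regions farther from genes were weaker. The 854 regions 5 to 10 kb from a row had medians of 3.48 CPM in SA, 4.33 in SPH, 3.70 in METS and 4.02 in DLD1. The 362 regions 50 to 100 kb away had medians of 1.42 CPM in SA, 1.89 in SPH, 2.05 in METS and 1.79 in DLD1. Beyond 100 kb, 160 regions had medians of 0.580 CPM in SA, 0.559 in SPH, 1.78 in METS and 0.744 in DLD1. METS kept the highest median over the weakest, most distant regions, and its lower quartile over all regions outside genes was 1.64 CPM, against 0.645 in SA, 0.839 in SPH and 0.893 in DLD1. The 434 regions with H3K79me3 within 5 kb had medians of 3.35 CPM in SA, 4.47 in SPH, 3.97 in METS and 3.57 in DLD1, against 2.58, 3.22, 3.01 and 3.12 CPM for the 2678 regions without it.

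The strongest regions outside genes were centromeric. The region chr1:121484997-121485418, 163 kb from the nearest row, held 5025 counts in SA, 8090 in SPH, 6995 in METS and 4733 in DLD1. It was 1.61-fold higher in SPH than in DLD1 (interval 1.55 to 1.67) and 1.36-fold higher in METS. The next strongest, chr18:18518890-18519463, held 840, 1426, 1165 and 794 counts in SA, SPH, METS and DLD1. In both regions SPH was highest, METS next, and SA and DLD1 lowest.

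The same order held at chr18:18519939-18520379, with 788, 1288, 1168 and 770 counts, and at chr7:61968767-61969251, with 638, 1049, 956 and 638 counts in SA, SPH, METS and DLD1. At chr10:42384932-42385359 the counts were 665 in SA, 886 in SPH, 993 in METS and 625 in DLD1. The region chr8:43092763-43093198, centromeric too, departed from this order, with 1139 counts in SA, 829 in SPH, 1218 in METS and 937 in DLD1, which made it 1.20-fold lower in SPH than in DLD1 (interval 1.09 to 1.32).

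Away from the centromeres no region outside genes exceeded 97.5 CPM in any line. The 6 strongest of these by mean CPM were picked out after the values had been seen. At chr17:75954853-75955471, 38.5 kb from a row, 680 counts were found in SA, 515 in SPH, 712 in METS and 597 in DLD1, or 87.7, 72.0, 97.5 and 88.8 CPM. The region chr10:92922990-92923610 held 584 counts in SA, 512 in SPH, 514 in METS and 489 in DLD1. Both were present in all 4 lines at levels above the median of regions overlapping a gene. The region chr17:79319250-79319770 held 597, 522, 535 and 445 H3K4me3 counts in SA, SPH, METS and DLD1, and the nearest H3K79me3 region held 43, 124, 109 and 34 counts. H3K79me3 there was thus higher in SPH and METS than in SA and DLD1, an order the H3K4me3 counts did not show.

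Of the other 3 of these 6, 1 had SPH and METS above SA and DLD1, with METS highest. It lay 2.45 Mb from the stretch taken to mark the centromere, just past the 2 Mb limit. It was part of a dense group of regions given below. At chr2:89871939-89872363 the counts were 423 in SA, 618 in SPH, 642 in METS and 375 in DLD1, or 1.55-fold higher in SPH (interval 1.36 to 1.77) and 1.58-fold higher in METS (1.39 to 1.79) than in DLD1, and its nearest H3K79me3 region held 785, 524, 538 and 802 counts. Here SPH and METS had more H3K4me3 and less H3K79me3 than DLD1. At chr3:75690522-75691088 they were 624, 677, 484 and 477, or 1.33-fold higher in SPH (interval 1.18 to 1.5), and at chr1:232765108-232765732 they were 619, 478, 597 and 462 in SA, SPH, METS and DLD1.

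The first question was how many regions outside genes changed in each derivative against DLD1. A region was counted as changed when the ratio of CPM, with 0.5 CPM added to both values, reached 2-fold. With 1 library per line this is a count of sizes and not a test, and the 3 comparisons share the DLD1 library. The shares over all 36400 regions serve as the background.

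In SA, 34 regions outside genes (0.805%) lay 2-fold or more above DLD1, against a background of 0.527%, and 169 (4.0%) lay 2-fold or more below it, against 2.1%. Inside or beside genes 0.482% were higher and 1.86% lower. In SPH, 273 regions outside genes (6.46%) were higher, against a background of 3.58%, and 205 (4.85%) were lower, against 3.34%. Inside or beside genes 2.98% were higher and 3.18% lower. In METS, 401 regions outside genes (9.49%) were higher, against a background of 3.91%, and 90 (2.13%) were lower, against 1.09%. Inside or beside genes 2.99% were higher and 0.933% lower. Regions outside genes thus passed 2-fold more often than those at genes in both directions in all 3 derivatives. METS leaned to higher and SA to lower values, as they did over all regions.

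The direction of these counts depended on the scaling and on the filter in SPH, and on the count minimum in METS. In SA the lower regions outnumbered the higher ones in every setting tried. Of the regions outside genes past 2-fold, 16.7% were higher in SA, 57.1% in SPH and 81.7% in METS. After quantile normalization these shares were 37.3%, 42.3% and 58.9%. With a mean of at least 20 counts, 65 regions were higher and 69 lower in METS, or 48.5% higher. Without the centromeric regions, 160 were higher and 196 lower in SPH, or 44.9% higher. At library totals, 192 of all 36400 regions were higher and 765 lower in SA, with 1303 and 1215 in SPH and 1425 and 396 in METS. SA thus leaned to lower and METS to higher values over the whole table too.

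Weak regions pass 2-fold on fewer counts, so the same shares were taken within classes of mean CPM over the 4 lines. Among regions of 0.5 to 1 CPM away from centromeres, 52.5% of 200 outside genes passed 2-fold upward in METS, against 51.2% of 428 inside or beside genes. Among regions of 1 to 2 CPM these shares were 21.8% and 21.6%. At 16 CPM or more, 0 of 377 regions outside genes were higher in METS, against 0.0923% inside or beside genes. Outside genes and at them alike, the METS excess sat in the weaker classes. The lower quartile over regions outside genes was highest in METS, as given above, whereas over regions inside or beside genes it was 4.93 CPM in METS, against 4.90 in SA, 6.01 in SPH and 5.36 in DLD1, and the part of the weak regions' level in METS in the result was not tested.

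If each class of regions outside genes away from centromeres had the shares of the regions at genes, 281.6 would have been higher in METS and 49.0 lower, against the 303 and 85 counted. For SPH the same reckoning gave 186.4 higher and 177.6 lower, against 160 and 196 counted. For SA it gave 37.0 higher and 130.8 lower, against 30 and 153 counted. Set beside regions of like strength, regions outside genes away from centromeres thus passed 2-fold about as often as regions at genes, apart from a larger number lower in METS. For the centromeric regions the reckoning gave 63.7 higher and 61.1 lower in SPH, against 113 and 9 counted. In METS it gave 107.8 higher and 16.3 lower, against 98 and 5 counted.

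**Figure D2:**
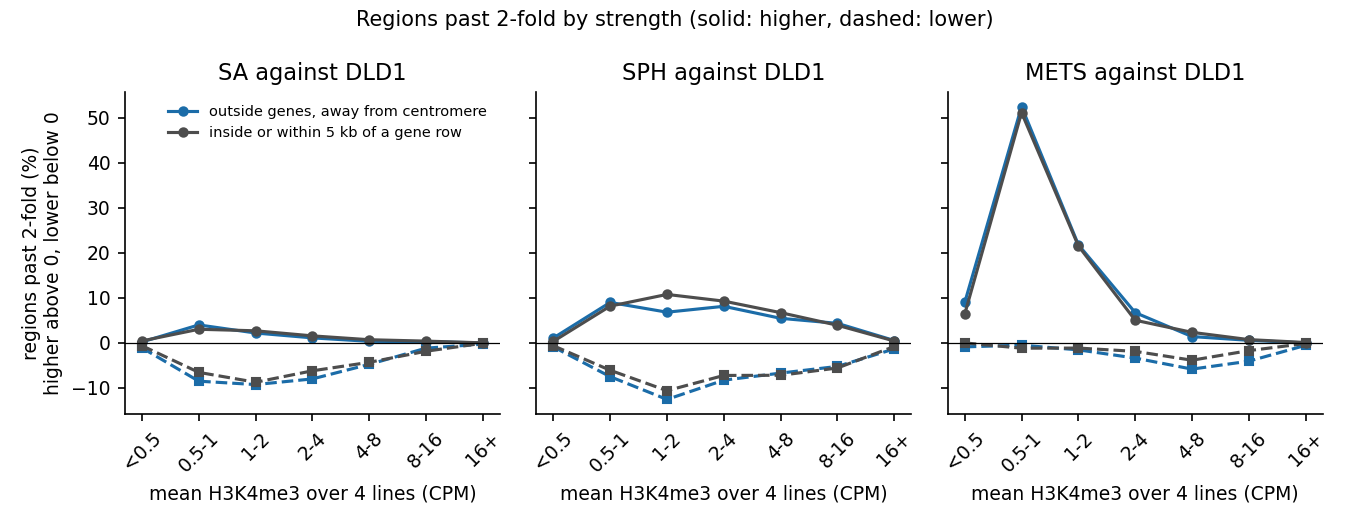
Share of regions at least 2-fold higher (solid lines, above 0) or lower (dashed lines, below 0) than in DLD1, in percent, by class of mean H3K4me3 over the 4 lines, for regions outside genes away from the centromere and for regions inside or within 5 kb of gene rows. In METS both lines peak in the class of 0.5 to 1 CPM, at 52.5% outside genes and 51.2% at genes.

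The centromeric regions moved together. Their median log2 ratio to DLD1 was -0.03 in SA, 0.46 in SPH and 0.41 in METS, against -0.15, 0.00 and -0.01 for the other regions outside genes. The 511 regions inside or beside genes in the same 2 Mb windows had medians of 0.00 in all 3 derivatives. At least 2-fold higher in SA were 4 centromeric regions (0.360%), against a background of 0.527%. In SPH 113 (10.2%) were higher, against 3.58%, and in METS 98 (8.81%), against 3.91%. Of the 511 regions at genes in the same windows, 3.13% were higher in SPH and 4.5% in METS. The 98 in METS did not exceed the 107.8 reckoned above at equal strength. At least 2-fold lower in SA were 16 centromeric regions (1.44%), against a background of 2.10%. In SPH 9 (0.809%) were lower, against 3.34%, and in METS 5 (0.450%), against 1.09%. These shares were smaller than the background in each derivative. With other scalings these medians ran from 0.37 to 0.43 in SPH and from 0.32 to 0.42 in METS, and with a mean of at least 20 counts they were 0.60 and 0.49.

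The shift was largest within 0.5 Mb of the empty stretch. Over the 503 regions outside genes within 0.05 Mb of it the median log2 ratio was 0.50 in SPH and 0.44 in METS. At 0.2 to 0.5 Mb (114 regions) it was 0.46 and 0.50. At 0.5 to 1 Mb (188 regions) it was 0.36 and 0.37, and at 1 to 2 Mb (149 regions) it was 0.22 and 0.01. At 2 to 5 Mb (229 regions) it was 0.24 and 0.18, and at 5 to 20 Mb (522 regions) both medians were 0.00. The 5 regions inside or beside genes within 0.05 Mb had medians of -0.03 and 0.00, the 27 at 0.05 to 0.2 Mb had medians of 0.36 and 0.29, and those at 0.2 to 20 Mb had medians of about 0.00. In SA no bin of regions outside genes out to 2 Mb had a median above 0.00.

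**Figure D3:**
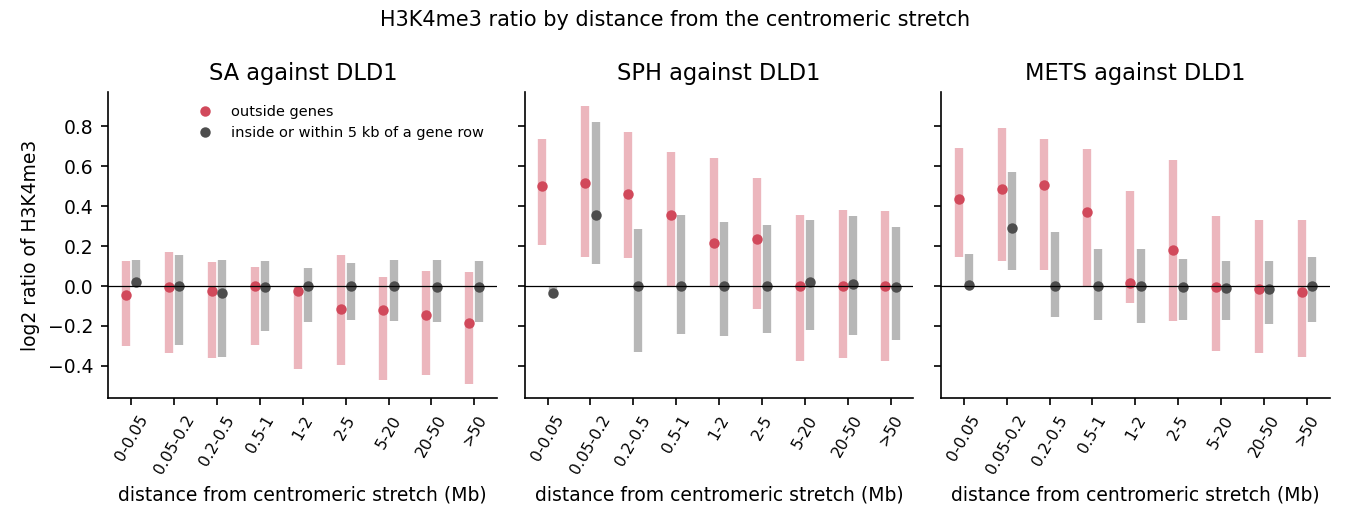
Median log2 ratio of H3K4me3 to DLD1 in SA, SPH and METS by distance from the centromeric stretch, for regions outside genes and for regions inside or within 5 kb of gene rows; bars run between the quartiles. Regions outside genes reach 0.50 in SPH and 0.44 in METS beside the stretch and 0.00 at 5 to 20 Mb.

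Summed over the 1112 centromeric regions, H3K4me3 reached 6012 CPM in SA, 9629 in SPH, 9031 in METS and 6598 in DLD1. The ratio to DLD1 was 0.911 in SA (interval 0.899 to 0.923), 1.46 in SPH (1.44 to 1.48) and 1.37 in METS (1.35 to 1.39). Leaving out the strongest region gave 0.910, 1.44 and 1.37. Summed over the other regions outside genes the ratio was 0.873 in SA, 1.01 in SPH and 0.936 in METS, and inside or beside genes it was 1.0, 0.993 and 0.996. A rise of about that size in SPH and METS was thus seen beside centromeres and not in the sums over other regions. Among loci away from centromeres, 3 dense ones on chromosome 2 had ratios of SPH to DLD1 between 1.52 and 1.74, as given below. The sums are shares of reads on repeat-rich DNA, and no input control was at hand. Whether repeat copy number or unspecific signal differed between the lines was not tested.

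The higher H3K4me3 ratio in SPH and METS was spread over the chromosomes. The summed ratio was above 1 on 17 of 18 chromosomes in SPH, with a range of 0.726 to 1.62, and on 17 of 18 in METS, with a range of 0.898 to 1.61. In SA it was above 1 on 1 of 18 chromosomes, with a range of 0.727 to 1.01. The exception in SPH and METS was chromosome 13, whose 11 centromeric regions gave 0.809 in SA, 0.726 in SPH and 0.898 in METS. On chromosome 6 SPH and METS parted, with 1.5 and 1.09 over 21 regions.

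H3K79me3 at the same places went the other way. The 952 H3K79me3 regions within 5 kb of centromeric H3K4me3 regions had medians of 4.12 CPM in SA, 2.60 in SPH, 2.64 in METS and 3.99 in DLD1. Their summed ratio to DLD1 was 1.07 in SA (interval 1.06 to 1.08), 0.673 in SPH (0.666 to 0.681) and 0.659 in METS (0.651 to 0.667). At least 2-fold lower were 3 of them (0.315%) in SA, against 2.3% of all H3K79me3 regions, 66 (6.93%) in SPH, against 5.11%, and 54 (5.67%) in METS, against 2.06%. At least 2-fold higher were 8 in SA (0.840%, against 1.08%), 2 in SPH (0.210%, against 3.03%) and 7 in METS (0.735%, against 7.14%). The 13190 H3K79me3 regions beside H3K4me3 regions at genes gave 0.883 in SA, 1.26 in SPH and 1.22 in METS for the summed ratio. Beside the other regions outside genes, 364 H3K79me3 regions gave 1.02, 0.863 and 0.853.

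The strongest region shows both marks at 1 place. Beside its 5025, 8090, 6995 and 4733 H3K4me3 counts, chr1:121484997-121485418 held 10617 H3K79me3 counts in SA, 5374 in SPH, 5512 in METS and 10359 in DLD1. Where SPH and METS had more H3K4me3 than SA and DLD1, they had less H3K79me3. The region on chromosome 8 with little change in H3K4me3 held 1776, 968, 945 and 1845 H3K79me3 counts in the same order of lines. H3K79me3 was thus lower in SPH and METS there too, although H3K4me3 was lower than in DLD1 in SPH and 1.20-fold higher in METS. Per chromosome, the H3K79me3 ratio was above 1 on chromosome 13 alone in SPH and METS, at 2.63 and 2.74 over 2 regions.

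**Figure D4:**
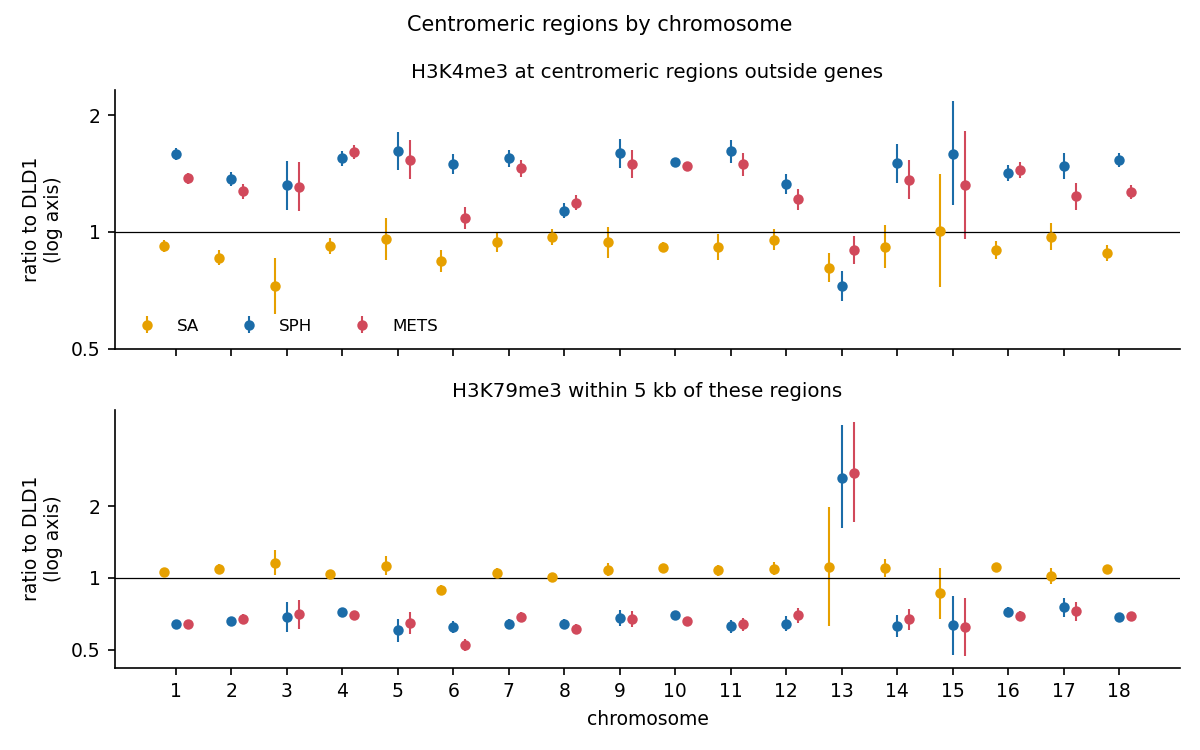
Ratio to DLD1 of summed CPM over centromeric regions outside genes, by chromosome, for SA, SPH and METS, with H3K4me3 in the upper panel and H3K79me3 within 5 kb in the lower panel; bars are exact 95% intervals of counting error. For SPH and METS, H3K4me3 lies above 1 and H3K79me3 below 1 on every chromosome except 13.

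Many centromeric regions lay so close together that they may not be independent measurements. When regions outside genes within 2 kb of each other were joined, 3048 loci were left, of which 2638 (86.5%) held a single region. Of the 342 centromeric loci, 211 (61.7%) held a single region. The 23 loci of at least 10 regions held 557 regions, and 20 of these loci were centromeric. The largest, chr4:49093208-49158674, held 64 regions over 65.5 kb and summed to 286 CPM in SA, 492 in SPH, 507 in METS and 312 in DLD1. At chr2:92267523-92326188, 62 regions summed to 370, 633, 573 and 399 CPM, and at chr10:42355262-42409518, 59 regions summed to 773, 1257, 1260 and 832 CPM in SA, SPH, METS and DLD1. In each of these loci SPH and METS lay above DLD1 and SA just below it. Counted by locus, 148 of 3048 were at least 2-fold higher in SPH, against 273 of 4224 by region.

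Another set was present in METS and nearly absent elsewhere. With at least 20 counts in METS and at most 3 in each other line, limits chosen after the values had been seen, 28 regions outside genes (0.663%) were counted, against a background of 0.283% and 65 (0.247%) inside or beside genes. Together they held 37 counts in SA, 29 in SPH, 930 in METS and 23 in DLD1. They lay on 13 chromosomes, with 6 on chromosome 12 and 4 on chromosome 4, and 1 was centromeric. No region in the whole table met the same limits for SA, SPH or DLD1. Among regions with a mean under 4 CPM the share was 1.10% outside genes (28 of 2536) and 1.19% inside or beside genes (64 of 5394). None of the 28 had a counted H3K79me3 region within 5 kb, against 17 of the 65 at genes that had one. Such a region lay near 13.9% of all regions outside genes away from centromeres and near 69.9% of all regions inside or beside genes.

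The strongest METS region of this kind was chr6:49764777-49765195, 9.72 kb from a row, with 1 count in SA, 0 in SPH, 92 in METS and 1 in DLD1. The ratio to DLD1 was 84.7-fold, with an interval of 14.8 to 3381 because it rests on a single DLD1 count. The region chr8:55294448-55295028 held 2 counts in SA, 1 in SPH, 77 in METS and 1 in DLD1. Both were at the level of a few reads in every line but METS. At chr12:98050464-98050889, with 58 counts in METS and 0 in SA, SPH and DLD1, METS was 17.8-fold higher than a floor of 3 counts in the DLD1 library. The lower limit of the interval against DLD1 was 14.0-fold. At chr4:160725559-160726031, with 51 counts in METS and 0 in the others, METS was 15.6-fold higher than that floor, with a lower limit of 12.3-fold.

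**Figure D5:**
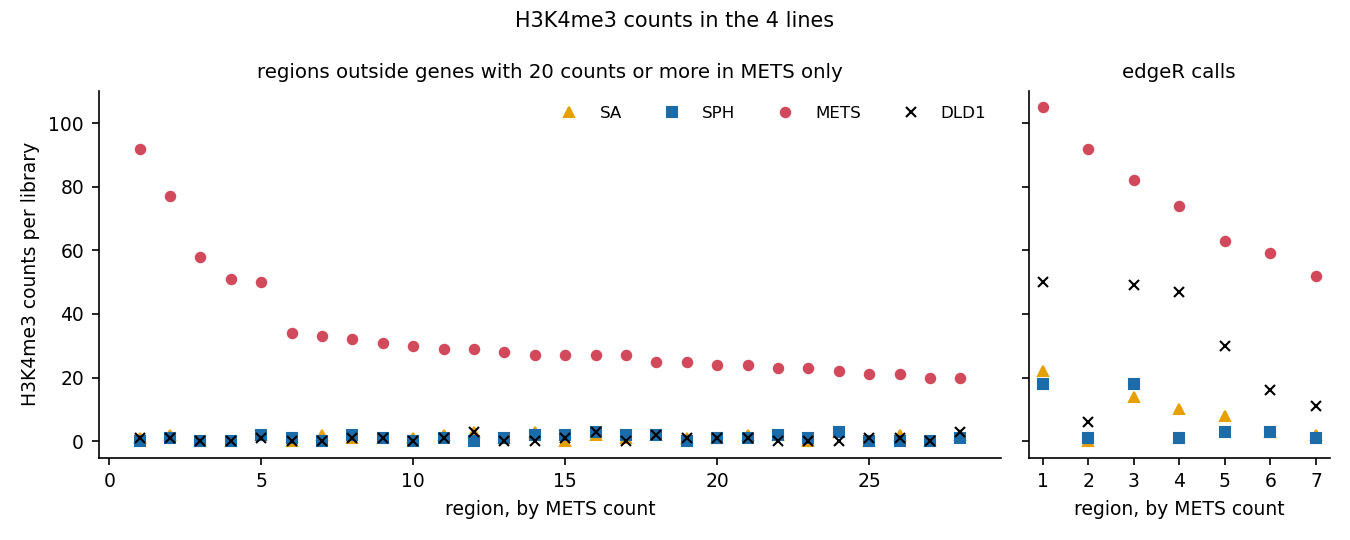
H3K4me3 counts per library in SA, SPH, METS and DLD1, for the 28 regions outside genes with at least 20 counts in METS and at most 3 in each other line (left) and for the 7 regions outside genes called lower in the mesenchymal lines by edgeR (right), ordered by METS count. METS counts run between 20 and 92 on the left, and METS lies above DLD1 in all 7 regions on the right.

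The opposite pattern, loss in 1 line, was seen in SPH. With at most 3 counts in SPH and at least 20 in every other line, 2 regions outside genes (0.0473%) were counted, against a background of 0.143% and 41 (0.156%) inside or beside genes. At chr11:61879760-61880187 the counts were 31 in SA, 1 in SPH, 49 in METS and 49 in DLD1, and at chr4:184949841-184950271 they were 28, 1, 51 and 41. Each rests on a single SPH count, at 52.1-fold (interval 8.93 to 2101) and 43.6-fold (7.40 to 1765) lower than in DLD1. Another region low in SPH, chr13:104003252-104003675, held 20 counts in SA, 1 in SPH, 18 in METS and 42 in DLD1, so that all 3 derivatives were below DLD1.

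The regions with the largest ratios of SPH to DLD1 were of 2 kinds. At chr6:47165460-47165904 the counts were 25 in SA, 46 in SPH, 13 in METS and 7 in DLD1, a 6.18-fold higher level in SPH than in DLD1 (interval 2.77 to 16.2), and at chr8:12695394-12695836 they were 17, 39, 14 and 6. Both lie away from centromeres and were lowest in DLD1, which a choice by the ratio to DLD1 favours. For METS against DLD1 the intervals included 1 (0.634 to 5.06 and 0.775 to 6.82). For SA it included 1 in the second region (0.924 to 7.61). The centromeric regions chr16:33955012-33955286, with 15, 68, 27 and 13 counts, and chr6:61901827-61902391, with 19, 47, 32 and 9 counts in SA, SPH, METS and DLD1, were 4.92-fold and 4.91-fold higher in SPH.

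The regions with the largest ratios of SA to DLD1 were weak. The largest, at chr16:85456058-85456476, came from 31 counts in SA, 30 in SPH, 25 in METS and 5 in DLD1, or 5.38-fold higher in SA (interval 2.07 to 17.7). The other 3 named were chr12:68221664-68222084 with 26, 19, 16 and 6 counts, chr11:68889794-68890213 with 25, 17, 12 and 7, and chr9:74167221-74167706 with 39, 48, 21 and 12 counts in SA, SPH, METS and DLD1. In all 4 DLD1 was the lowest line, which a choice by the ratio to DLD1 favours. For METS against DLD1 the interval included 1 at chr12:68221664-68222084 (0.912 to 7.66), chr11:68889794-68890213 (0.573 to 4.73) and chr9:74167221-74167706 (0.757 to 3.59). For SPH it included 1 at the chromosome 11 region (0.899 to 6.51).

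The regions with the lowest ratios of SA to DLD1 were low in SPH as well. At chr4:29806260-29806783 the counts were 2 in SA, 1 in SPH, 18 in METS and 25 in DLD1, 14.4-fold lower in SA than in DLD1 (interval 3.6 to 126). At chr1:10864182-10864628 they were 2, 8, 32 and 21, and at chr12:105486274-105486731 they were 10, 3, 25 and 54. At each of these places both mesenchymal lines lay below both epithelial lines.

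The regions with the lowest ratios of METS to DLD1 had their highest level in DLD1. Beside chr5:76476106-76476724, with 121, 115, 53 and 278 counts in SA, SPH, METS and DLD1, the region chr1:195732358-195732805, 281 kb from a row, held 50 counts in SA, 57 in SPH, 28 in METS and 120 in DLD1. It was 4.66-fold lower in METS (interval 3.07 to 7.30). At chr13:100578685-100579119 the counts were 14, 23, 13 and 57, and at chr17:2952412-2952785 they were 88, 100, 35 and 132. DLD1 was the highest line in all 4 regions, and METS the lowest, an order that a choice by the ratio of METS to DLD1 favours.

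The second question set the 2 mesenchymal lines, SA and SPH, against the 2 epithelial lines, METS and DLD1. Both mesenchymal values lay at least 2-fold below both epithelial values in 49 regions outside genes (1.16%), against a background of 0.69% and 164 (0.622%) inside or beside genes. In 0 regions outside genes did both lie 2-fold above, against a background of 0.0137%. The 49 regions had medians of 0.774 CPM in SA, 0.559 in SPH, 3.70 in METS and 3.72 in DLD1, 21 of them reached a mean of 20 counts, and 2 were centromeric. Lower values in the mesenchymal lines thus outnumbered higher ones, outside genes as at genes. These shares were not taken within classes of strength.

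edgeR's quasi-likelihood test over all 35629 regions with a count, with each line as 1 replicate and Benjamini-Hochberg adjustment, called 7 of 4013 regions outside genes lower in the mesenchymal lines and 0 higher, against a background of 0.292% lower and 0.00561% higher. At an unadjusted p under 0.05 were 343 of the 4013, against 3905 of all 35629 regions, a larger share. The only spread behind these p-values is that among 4 lines of 1 origin, and the calls changed with the setting. Of the regions outside genes, 1 was called lower with TMM factors, 0 with DESeq2 size factors and 1 by DESeq2's Wald test. Over all 35629 regions these settings called 14, 8 and 36 lower, against 104 in the main setting. Leaving out SA gave 96 called higher and 115 lower of 3996 regions outside genes, against 2455 and 2880 of all 35560 regions, which are larger shares. Leaving out DLD1 gave 1 and 104 of 3994, against 35 and 547 of all 35562.

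The call with the lowest adjusted p was chr16:81752388-81753003, 7.02 kb from a row, with 10 counts in SA, 1 in SPH, 74 in METS and 47 in DLD1. Its log2 ratio of mesenchymal to epithelial lines was -3.52 with a standard error of 0.590 and an adjusted p of 0.0184 by edgeR's quasi-likelihood test. The region chr12:101539869-101540297 held 8, 3, 63 and 30 counts in SA, SPH, METS and DLD1 (log2 ratio -3.13, adjusted p = 0.0276 by edgeR). In both places DLD1 had several times the counts of SA and SPH.

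At chr6:86767268-86767706 the counts were 0 in SA, 1 in SPH, 92 in METS and 6 in DLD1 (log2 ratio -6.33, adjusted p = 0.0291 by edgeR), so the call rests mainly on METS. An H3K79me3 region 1.75 kb from it held 0 counts in SA, 1 in SPH, 11 in METS and 0 in DLD1, and 30.2 kb from it lay chr6:86736681-86737104, one of the 28 regions found in METS alone, with 1, 0, 25 and 1 H3K4me3 counts. The regions chr1:86107442-86108002, with 3, 3, 59 and 16 counts, and chr17:39362706-39363176, with 2, 1, 52 and 11 counts, were also strongest in METS (adjusted p = 0.0316 and 0.0355 by edgeR). The remaining calls were chr8:70269253-70269687, with 14, 18, 82 and 49 counts, and chr11:116147171-116147596, with 22, 18, 105 and 50 counts in SA, SPH, METS and DLD1 (adjusted p = 0.0421 and 0.0449 by edgeR). METS was above DLD1 in all 7, and 0 were centromeric. Over the 7 the medians were 1.03 CPM in SA, 0.419 in SPH, 10.1 in METS and 4.46 in DLD1.

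The 4 regions with the widest gap in the mesenchymal lines' favour were not called by edgeR's test. The widest were at chr9:74167221-74167706 and chr6:47165460-47165904, whose counts are given above. Their summed mesenchymal over epithelial ratios were 2.48-fold (interval 1.64 to 3.82) and 3.34-fold (2.01 to 5.79). At chr11:80584658-80585200 the counts were 37 in SA, 61 in SPH, 20 in METS and 16 in DLD1, and at chr7:155636564-155636973 they were 32, 29, 17 and 15. At all 4 regions the lower mesenchymal value was less than 2-fold above the higher epithelial value. The summed mesenchymal over epithelial ratio was 2.56-fold (interval 1.73 to 3.86) on chromosome 11 and 1.79-fold (1.15 to 2.84) on chromosome 7. In the other direction chr10:72218127-72218580, with 3, 2, 22 and 18 counts in SA, SPH, METS and DLD1, had a wide gap on few counts.

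The regions farthest from any row were centromeric. The 4 farthest with at least 20 counts in a line lie together on chromosome 7, 739 to 742 kb from a row and within 0.03 Mb of the empty stretch. At chr7:61078991-61079382 the counts were 22 in SA, 37 in SPH, 40 in METS and 20 in DLD1, and at chr7:61079530-61079938 they were 28, 47, 42 and 19. At chr7:61080359-61080825 they were 81, 75, 90 and 55, and at chr7:61082012-61082441 they were 26, 38, 37 and 20. SPH and METS were above DLD1 at all 4 of these neighbouring regions. SA was below DLD1 at chr7:61078991-61079382, with 2.84 against 2.98 CPM, and above it at the others. For SA the interval of the ratio to DLD1 included 1 at all 4. For SPH it included 1 at chr7:61078991-61079382 (0.983 to 3.16) and chr7:61080359-61080825 (0.893 to 1.85). For METS it included 1 at chr7:61082012-61082441 (0.963 to 3.10). At chr7:61080359-61080825 SA and SPH were alike, at 10.4 and 10.5 CPM, against 8.18 in DLD1.

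The limit of 5 kb cut through regions of very unequal strength. Just outside genes by it were chr13:111262482-111262876 at 5.004 kb, with 13, 31, 14 and 16 counts in SA, SPH, METS and DLD1, chr11:1569878-1570268 at 5.005 kb, with 69, 76, 66 and 53, and chr3:126701991-126702430 at 5.006 kb, with 523, 372, 536 and 431. Just short of it were chr2:8768067-8768605 at 4.994 kb, with 73, 88, 72 and 48 counts, chr16:411971-412395 at 4.988 kb, with 10, 4, 18 and 7, and chr6:30448257-30448733 at 4.983 kb, with 31, 38, 23 and 39.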

How the data were processed

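Chromatin immunoprecipitation sequencing was done for 3 histone marks in 4 lines, 1 library each, with the Diagenode iDeal kit per the labels' protocols. The deposited values are raw counts per region, one table for each library, on hg19 per the submitters' processing notes. Which aligner, caller of regions, counter or input control was used is not given in the sources used here. The deposited H3K27me3 table states that 7773 rows were skipped, so the rule was applied on chromosomes 1 to 18 only.

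Counts were divided by the library total (CPM). Ratios to DLD1 used 0.5 CPM added and a 2-fold threshold, and single ratios used exact 95% Clopper-Pearson intervals, conditional on the sum of both counts, with a floor of 3 counts for a library at 0. Reads without molecular identifiers are not independent molecules, and the intervals and floors hold for counting error alone. The quasi-likelihood test of edgeR 4.0.16 in R 4.3.3 (library totals, Benjamini-Hochberg at 0.05) compared SA and SPH with METS and DLD1 over all H3K4me3 regions with a count, with DESeq2 1.42.0 as an alternative. The scripts were tested on simulated data. Other scalings, added CPM, thresholds, distances, count minimums and the joining of neighbouring regions were tried.

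Named regions were the 6 strongest, up to 4 in each direction for each derivative (at least 20 counts in 1 of both lines), up to 4 in each direction by the gap between mesenchymal and epithelial lines, the edgeR calls, the 4 farthest from a row and the 3 on either side of the 5 kb limit. The set of regions and the lists were chosen with earlier results of these data known. The centromeric split, the limits for presence in METS alone or absence from SPH alone, the strongest regions away from centromeres and quantile normalization were chosen after the values had been seen. The table holds region positions without bases, so sequence content was not analysed here.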

Additional observations from a re-analysis of the deposited data

How the results depend on the processing

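Of 164 values under alternative settings, 100 stayed on their side of the threshold or within 1.5 times of the count. Counts at 2-fold are given as higher and lower. They are out of the 4224 regions outside genes unless another number is given, and the same shares over all regions are not given. The set more than 20 kb from every row was smaller, with 2186 regions holding a count, against 4013 in the main setting. There they were 18 and 89 in SA, 168 and 109 in SPH, 237 and 43 in METS, and 28 lower in both mesenchymal lines. Over the 2192 regions with a mean of at least 20 counts they were 8 and 57 in SA, 129 and 90 in SPH, 65 higher in METS, and 21 lower in both mesenchymal lines. With 0.1 CPM added they were 208 and 445 in SA, 544 and 437 in SPH, 682 and 181 in METS, and 13 and 134 in both mesenchymal lines. With 2 CPM added they were 1 and 26 in SA, 46 and 84 in SPH, 84 and 21 in METS, and 6 lower in both mesenchymal lines. At 1.5-fold they were 222 and 712 in SA, 973 and 520 in SPH, 931 and 364 in METS, and 14 and 164 in both mesenchymal lines. At 4-fold they were 0 and 6 in SA, 3 and 39 in SPH, 72 and 2 in METS, and 1 lower in both mesenchymal lines. In SPH, 148 of 3048 loci were higher, and 160 of 3112 regions without the centromeric ones. Quantile normalization gave 66 and 111 in SA, 162 higher in SPH, 264 and 184 in METS, and 3 higher in both mesenchymal lines. Of the 7 regions called lower by edgeR's test in the main setting, 3 lay beyond 20 kb. Fitted anew, the test called 1 region outside genes lower with TMM factors, against 14 of all 35629 regions. With DESeq2 size factors it called 0 lower, against 8 of all (345 at an unadjusted p under 0.05, against 3589 of all). DESeq2's Wald test called 1 lower, against 36 of all (156 at an unadjusted p under 0.05, against 1775 of all). Whether the regions called in these fits were among the 7 is not given here. Leaving out each line in turn gave 0 to 96 called higher, the most without SA, and 5 to 115 called lower, with 115 without SA and 104 without DLD1. The cause was not tested. Per kb of region length the medians were 5.57 CPM in SA, 7.77 in SPH, 7.02 in METS and 6.56 in DLD1. The median log2 ratio of centromeric regions with a mean of at least 20 counts was 0.60 in SPH. Depth limits single regions, since 51.9% of those outside genes reach a mean of 20 counts. No paired analysis was possible because the labels give no replicate numbers and each line has 1 library.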

Other observations

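Of the 23 loci of at least 10 regions outside genes, 3 were not centromeric, and all 3 lie on chromosome 2. At chr2:89865052-89880107, 2.45 Mb from the empty stretch, 20 regions summed to 226 CPM in SA, 395 in SPH, 394 in METS and 260 in DLD1. At chr2:89842106-89861590, 18 regions summed to 68.4 CPM in SA, 119 in SPH, 119 in METS and 68.4 in DLD1. At chr2:133025630-133038219, 37.6 Mb from the stretch, 13 regions summed to 90.7 CPM in SA, 174 in SPH, 147 in METS and 109 in DLD1. The ratio of SPH to DLD1 was 1.52 (interval 1.43 to 1.62), 1.74 (1.55 to 1.95) and 1.59 (1.45 to 1.75) in these loci, and that of METS to DLD1 was 1.52, 1.74 and 1.35. These ratios lie near the 1.46 in SPH and 1.37 in METS of the summed centromeric regions.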
